A study of Mus musculus with 16 samples.

Results

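A group of 34 genes of glycolysis and of the response to low oxygen was followed across whole embryonic hearts of the mouse at midgestation (stage E10.5). The members were chosen by gene symbol, by a rule that uses no measured value, after earlier results of these data were known, and each of the 34 symbols matched 1 of the 37991 rows of the count table. Of these, 22 act in glycolysis or in the fate of pyruvate, and 12 belong to oxygen sensing or to its target genes. Bulk RNA sequencing covered 16 libraries of 4 labelled genotypes at the Tbx5 locus, with 4 libraries each. Besides wild type (WT) there were Tbx5 del/+ hearts, Tbx5 CreERT2/+ hearts and hearts with both alleles, labelled Tbx5 del/CreERT2 and written CreERT2/del here. Tbx5 is a T-box factor needed for heart development, and CreERT2 is a Cre recombinase fused to a modified oestrogen receptor. All groups share the stage and the tissue, and the WT group carries neither altered allele. The labels do not say which part of Tbx5 either allele alters, whether tamoxifen was given, or whether a library is 1 embryo or a pool. The p-values therefore measure only the spread between these libraries, which may be technical.

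Glycolysis splits glucose into pyruvate in the cytosol and yields ATP without oxygen, and lactate dehydrogenase then turns pyruvate into lactate. When oxygen is low, prolyl hydroxylases no longer mark the HIF-1α protein for breakdown, and the stabilised factor binds DNA and raises the transcription of glucose transporters, glycolytic enzymes and angiogenic factors. The embryonic heart of midgestation relies largely on glycolysis and shifts towards fatty acid oxidation around and after birth.

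HIF factors bind a short core, ACGTG or GCGTG, so the promoter windows of the members were searched for both strings on both strands. Windows came from RefSeq in build GRCm38.p6 and ran from 250 bases before to 50 bases after an annotated start. They were found for 30 of the 34 members (not for Slc2a3, Pkm2, Ndrg1 and Ero1l). At least 1 match lay in a window of 28 of the 30 genes, or 93.3%, against 46.7% of 27025 genes with a window and 66.9% of the 9560 genes with a window that were also tested for expression here. The member windows had a median GC content of 62%, against 52.7% over all windows and 60.7% over those of tested genes. At least 3 matches in 1 window were found for 13 of the 30 members, and for 10.2% of all genes with a window. That share is not given for tested genes alone. Each gene counted by its richest window, and the 30 members had 43 windows, against 32851 for the 27025 genes. Since CACGTG holds ACGTG on both strands, it counted as 2 matches, and it was present in 7.15% of all windows.

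The Ldha window (chr7:46845554-46845853, plus strand) held 7 matches, more than any other member window. Bnip3 (chr7:138909457-138909756, minus strand) and a second start of Hk1 held 5 each. The windows below are those of Ldha and Bnip3, followed by 3 abundant enzymes of neighbouring steps whose lowest level of all 16 libraries was in the same library, CreERT2/+ 3: Gapdh (chr6:125165724-125166023, minus strand) with 3 matches, Pgk1 (chrX:106186850-106187149, plus strand) with 2, and Tpi1 (chr6:124814109-124814408, minus strand) with none. They are written 5′ to 3′ on the gene's strand, and capitals mark the core string or its reverse complement.
Ldha: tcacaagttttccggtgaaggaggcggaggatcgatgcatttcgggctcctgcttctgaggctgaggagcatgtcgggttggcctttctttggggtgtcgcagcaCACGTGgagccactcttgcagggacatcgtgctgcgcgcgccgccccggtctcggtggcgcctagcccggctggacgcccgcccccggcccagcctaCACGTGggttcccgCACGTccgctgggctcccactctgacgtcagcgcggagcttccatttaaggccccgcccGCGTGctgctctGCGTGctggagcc
Bnip3: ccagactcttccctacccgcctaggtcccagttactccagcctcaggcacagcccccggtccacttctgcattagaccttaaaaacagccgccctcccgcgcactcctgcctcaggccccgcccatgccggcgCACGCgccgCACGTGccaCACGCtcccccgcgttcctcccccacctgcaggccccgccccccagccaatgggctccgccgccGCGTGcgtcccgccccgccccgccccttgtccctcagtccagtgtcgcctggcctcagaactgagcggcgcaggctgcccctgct
Gapdh: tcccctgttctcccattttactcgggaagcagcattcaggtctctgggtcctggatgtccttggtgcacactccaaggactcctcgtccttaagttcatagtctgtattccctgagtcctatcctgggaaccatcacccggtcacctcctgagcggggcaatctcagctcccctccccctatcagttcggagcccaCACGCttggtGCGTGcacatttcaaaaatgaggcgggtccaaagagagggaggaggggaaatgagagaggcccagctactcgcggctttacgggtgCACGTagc
Pgk1: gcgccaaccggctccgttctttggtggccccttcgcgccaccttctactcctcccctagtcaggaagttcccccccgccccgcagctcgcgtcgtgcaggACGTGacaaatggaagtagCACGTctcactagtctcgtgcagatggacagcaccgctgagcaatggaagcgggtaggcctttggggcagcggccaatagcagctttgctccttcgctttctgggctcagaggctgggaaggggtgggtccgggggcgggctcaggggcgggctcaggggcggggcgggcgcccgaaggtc
Tpi1: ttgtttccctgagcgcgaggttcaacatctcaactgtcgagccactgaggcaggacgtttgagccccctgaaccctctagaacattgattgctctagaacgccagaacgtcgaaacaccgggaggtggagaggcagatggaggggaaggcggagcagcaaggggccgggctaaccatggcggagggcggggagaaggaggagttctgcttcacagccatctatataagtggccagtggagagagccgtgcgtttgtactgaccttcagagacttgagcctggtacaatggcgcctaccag
The only other member with a window and no match was Gpi1. A match describes letters in these windows and was not tied to binding or to the levels given here.

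Total counts ran from 21436305 to 42731841 per library, of which 42.3% to 78.3% fell on the mitochondrial ribosomal RNAs, leaving 6611755 to 16796193 counts. Levels are CPM after TMM scaling of the library sizes. Tbx5 itself was at 13.7 to 25.6 CPM in WT hearts and 20.3 to 24.1 CPM in CreERT2/del hearts, with 24.8 to 41.4 CPM in del/+ and 18.1 to 39.2 CPM in CreERT2/+. No altered genotype had a lower Tbx5 mean than WT. A count over the whole gene does not check an altered allele whose position is not given, so genotypes are as labelled. All 10 cardiomyocyte markers were detected in all 16 libraries, with summed levels of 18414 to 22290 CPM, so the label of heart held. The summed level of 5 endoderm and liver markers, 2 of them detected in all 16 libraries, ran from 0.902 to 232.9 CPM in del/+. Its highest values were 36.5 CPM in WT, 12.1 CPM in CreERT2/+ and 27.2 CPM in CreERT2/del. The part of such cells in the results was not tested. In CreERT2/+ 3, CreERT2/del 3 and WT 4 the ribosomal share was lowest (42.3%, 53.6% and 60.6%, against 62.3% to 78.3% in the other 13). These 3 libraries were taken by rank, and WT 4 lies close to the next one, CreERT2/del 4, at 62.3%. Counts of members and many of the estimates are given with and without the 3. No gene of 8 lists of cell type markers passed in any comparison. The summed level of 6 epicardium markers, all detected in all 16 libraries, was 52.6 to 68.3 CPM in CreERT2/del hearts, below all other libraries, of which the lowest was at 71.9 CPM. The part of this in the results on CreERT2/del hearts was not tested.

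Members of the glycolytic pathway were among the most abundant transcripts of the E10.5 heart. Per kilobase of gene model, Gapdh, the dehydrogenase of the middle of the pathway, led in WT with 676 ± 207 CPM per kb (SD, n = 4), above 99.8% of the 14612 tested genes. Ldha, the lactate dehydrogenase subunit abundant in glycolytic tissue, followed at 199.6 ± 72.6 CPM per kb. Pgk1, Tpi1, Aldoa, Pgam1, Pkm2 and the glucose transporter Slc2a1 came next, with WT means from 137 down to 73.8 CPM per kb. Eno1, Ldhb, Eno3 and Gpi1 ran from 47.0 to 21.5 CPM per kb. From Ldha down to Slc2a1 each gene differed from the next by less than the larger of their SDs, as Tpi1 at 100.3 ± 36.8 and Aldoa at 96.6 ± 30.5 CPM per kb did. Together the members took 1.02% to 1.67% of the counts outside mitochondrial ribosomal RNA. Within that share Gapdh alone made up 29.6% to 45.6% and Ldha 10.3% to 17.2%. Sequence copies of Gapdh, Ldha and other glycolytic genes are scattered through the mouse genome as processed pseudogenes, and how reads with several matches were counted is not given in the sources used here. In bulk RNA, fewer cells of a type and less RNA per cell cannot be told apart.

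**Figure D1:**
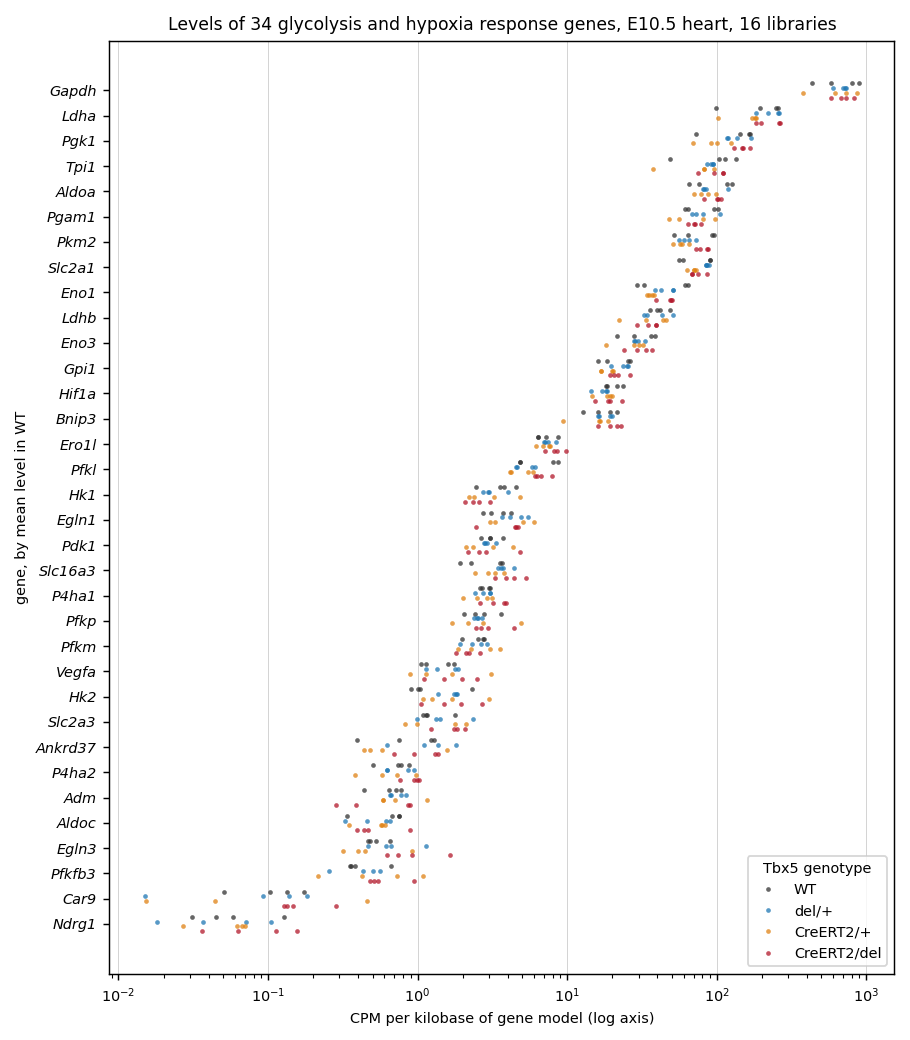
Level of each of the 34 members in CPM per kilobase of gene model (log axis), with 1 point per library coloured by Tbx5 genotype and genes ordered by WT mean; 1 value of 0 (Car9 in CreERT2/+ 1) is not drawn. Gapdh lies at the top with a WT mean of 676 CPM per kb and Car9 and Ndrg1 at the bottom, and the points of the 4 genotypes lie among each other for most genes.

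Genes of the oxygen response spanned a wider range. Hif1a, the oxygen-regulated subunit of the factor, was at 20.5 ± 2.59 CPM per kb in WT, and Bnip3, a mitophagy receptor, at 17.4 ± 3.82. The prolyl hydroxylase Egln1 was at 3.44 ± 0.66 CPM per kb and its paralogue Egln3 at 0.53 ± 0.08. Vegfa, the endothelial growth factor, reached 1.39 ± 0.35 CPM per kb. The lowest members were Car9, a surface carbonic anhydrase, with 0 to 55 counts per library, and Ndrg1 with 3 to 32 counts. They exceeded 7.46% and 3.30% of tested genes in WT, so their estimates rest on few counts. Car9 had 0, 1 and 2 counts in CreERT2/+ 1, 2 and 4 and 55 in CreERT2/+ 3.

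CreERT2/del hearts were compared with WT first, since they carry both altered alleles. No member passed an adjusted p of 0.05 in edgeR's quasi-likelihood test with Benjamini-Hochberg adjustment over all 14612 tested genes, of which 0.335% did. The lowest adjusted p of a member was 0.619, and DESeq2 and limma-voom also called 0. At an unadjusted p below 0.05 there were 3 of 34 members, against 5.67% of tested genes, and on the 13 libraries without those 3 there were 4, against 8.33%, and without WT 4 alone 1, against 7.12%. The median log2 fold change of the members was 0.10, against -0.003 over all tested genes, with 23 members above 0 and 11 below. Without the 3 libraries low in ribosomal RNA the median was 0.00 and the split 17 to 17, and without WT 4 alone they were -0.03 and 15 above 0 to 19 below. In no member did the 4 CreERT2/del libraries lie apart from the 4 WT libraries, as 2.31% of tested genes did upwards and 1.96% downwards.

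Slc16a3 encodes MCT4, the transporter that exports lactate. It was at 19.4, 12.1, 18.8 and 10.1 CPM in WT 1 to 4 and at 28.3, 23.3, 17.6 and 20.7 CPM in CreERT2/del 1 to 4. The groups overlap, because CreERT2/del 3 lies below WT 1 and WT 3. The log2 fold change was 0.57 ± 0.23 (SE; adjusted p = 0.619 by edgeR), and it was 0.52 on the 13 remaining libraries (adjusted p = 0.410). In mm9 the gene lies at chr11:120809794-120822182 on the plus strand and overlaps the model of Csnk1d, and whether counting used strand is not stated.

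Egln3 encodes the prolyl hydroxylase PHD3, itself a HIF target (mm9 chr12:55279968-55304847, minus strand). Its values were 1.40, 1.23, 1.74 and 1.29 CPM in WT and 2.45, 4.41, 1.96 and 1.66 CPM in CreERT2/del. CreERT2/del 2 is the highest of all 16 libraries, and CreERT2/del 4 lies below WT 3. The fold change was 1.84 with a 95% confidence interval of 1.07 to 3.16, from 23 to 131 counts per library, and the adjusted p was 0.710 by edgeR. Slc2a3, the high-affinity glucose transporter GLUT3, came after these by p among members above 0, at a log2 fold change of 0.42 ± 0.29 (adjusted p = 1.00 by edgeR).

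Among members with a lower estimate, Hk1 had the lowest p. It encodes the hexokinase that commits glucose to the cell by phosphorylation (mm9 chr10:61731603-61842656, minus strand). Its levels were 38.9, 21.1, 30.4 and 32.4 CPM in WT and 26.0, 20.04, 22.0 and 17.7 CPM in CreERT2/del. WT 2 lies within the CreERT2/del range and the other 3 WT libraries above it. The log2 fold change was -0.52 ± 0.24 (adjusted p = 0.849 by edgeR), with a 95% interval of -1.03 to -0.01. Ldhb, the lactate dehydrogenase subunit of oxidative muscle, and Pfkm, the muscle phosphofructokinase, were at -0.22 ± 0.22 and -0.19 ± 0.22.

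**Figure D2:**
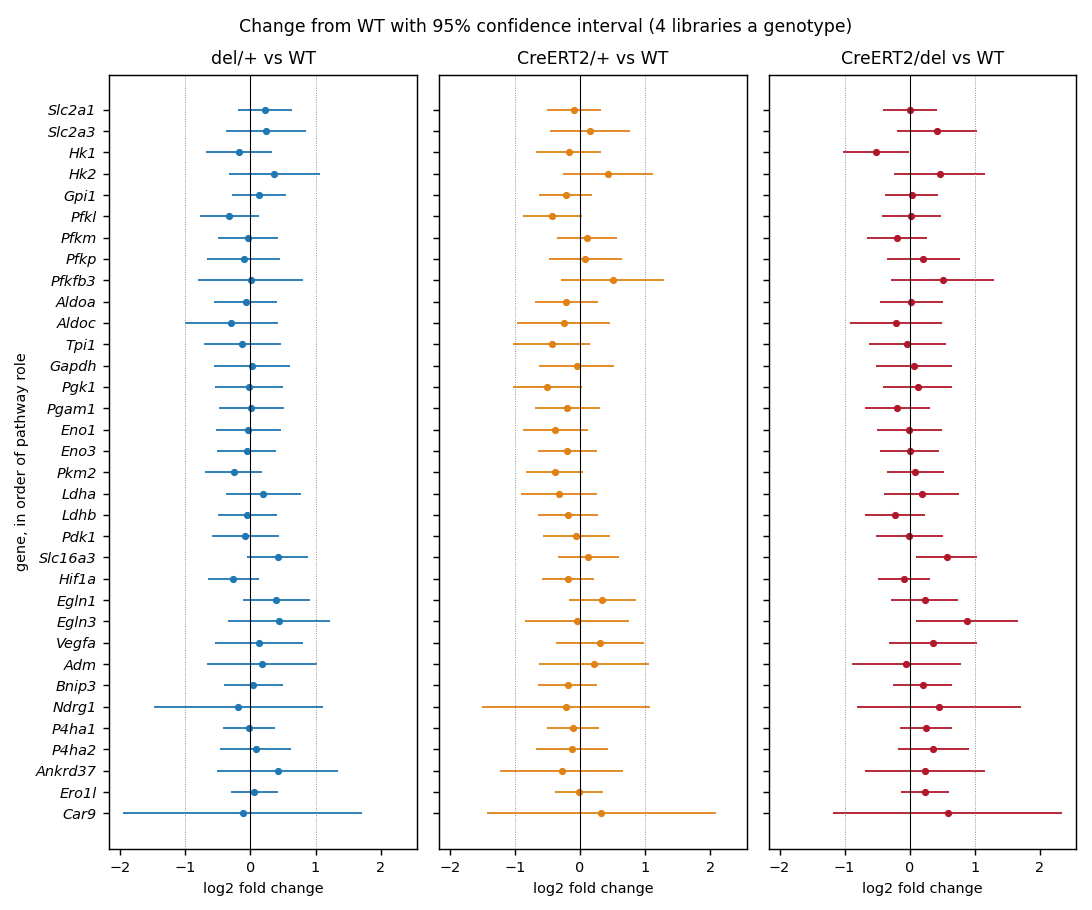
Estimated log2 fold change of every member (point) and its 95% confidence interval (line) for del/+, CreERT2/+ and CreERT2/del against WT, with 4 libraries a genotype; dotted lines mark a 2-fold change. The intervals of Slc16a3, Egln3 and Hk1 in CreERT2/del leave out 0 before adjustment, and those of Car9 and Ndrg1 are the widest.

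How large a change these data leave possible follows from the intervals. The median 95% interval of a member in CreERT2/del against WT reached 0.52 log2 units to either side. A 2-fold change in 1 direction or the other lay within the interval of 10 of the 34 members. For Gapdh, commonly used as a reference transcript, the log2 fold change was 0.06, and its libraries ran from 980 to 2006 CPM in WT and from 1316 to 1868 CPM in CreERT2/del.

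Hearts with 1 altered allele were compared with WT in turn. In del/+ hearts 0 members passed, against 0.116% of tested genes, and DESeq2 and limma-voom also called 0. An unadjusted p below 0.05 was reached by 0 members in edgeR, against 5.81% of tested genes, and on the 13 libraries by 5, against 1437 of 14372 tested genes. The median of the members was -0.01 log2 units, against -0.02 over all tested genes, with 17 above 0 and 17 below, and it was -0.01 with the same split of 17 to 17 on the 13 libraries. Without WT 3 alone the median was 0.07 with 25 above 0, and without WT 2 alone -0.05 with 14 above 0. No member's del/+ libraries lay apart from WT, as 2.18% of tested genes did upwards and 1.88% downwards. The members with the lowest p upwards were Slc16a3 at 0.42 ± 0.23 (adjusted p = 0.905 by edgeR), Egln1 at 0.40 ± 0.25 and Egln3 at 0.44 ± 0.38. Downwards they were Pfkl, the liver phosphofructokinase, at -0.33 ± 0.22, Hif1a at -0.26 ± 0.19 and Pkm2, the pyruvate kinase gene, at -0.26 ± 0.21. Hk2, the inducible hexokinase, had the lowest p on the 13 libraries, at 0.79 ± 0.22 (adjusted p = 0.172 by edgeR), against 0.36 with all 16. There Egln1 was at 0.52, Pfkl at -0.45 and Pkm2 at -0.41, with adjusted p of 0.456, 0.450 and 0.431 by edgeR.

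In CreERT2/+ hearts 0 members passed either, against 0.0342% of tested genes. An unadjusted p below 0.05 was reached by 0 members in edgeR and limma-voom and by 2 in DESeq2, and 3.71% of tested genes reached it in edgeR. In edgeR 7 members reached it on the 13 libraries, against 7.99% of tested genes, and without WT 4 alone 7 did, against 7.90%. Both settings leave out WT 4. Any other omission of 1 library gave 0 to 2 members, as 2 without CreERT2/+ 3, against 6.86%, and 0 without WT 1, against 3.35%. Those on the 13 libraries were Pgk1, Pfkl, Pkm2, Tpi1, Eno1, Pgam1 and Car9, all with estimates below 0. The median was -0.15 log2 units, against 0.01 over all tested genes, with 10 members above 0 and 24 below. The libraries of every member overlapped WT, whereas 1.05% of tested genes lay wholly above it and 0.602% wholly below. Pgk1, phosphoglycerate kinase, was at -0.50 ± 0.25, Pfkl at -0.43 ± 0.22 and Pkm2 at -0.39 ± 0.21 (adjusted p = 1.00 for each by edgeR). Egln1 at 0.34 ± 0.25, Pfkfb3, which makes the activator of phosphofructokinase, at 0.50 ± 0.38 and Hk2 at 0.43 ± 0.34 had the lowest p upwards. On the 13 libraries the median was -0.19, and Pgk1, Pfkl and Pkm2 were at -0.59, -0.66 and -0.55 with adjusted p of 0.317, 0.334 and 0.367 by edgeR.

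CreERT2/del and CreERT2/+ hearts differ by the del allele. No member passed, against 0.0753% of tested genes, and DESeq2 and limma-voom also called 0. In edgeR 3 members had an unadjusted p below 0.05 and in the other tools 4, against 3.97% of tested genes in edgeR. In edgeR 9 did on the 13 libraries, against 6.05% of tested genes, all with estimates above 0. Without WT 4 alone 6 did, against 4.50%, and without CreERT2/+ 3 alone 5 did, against 6.28%. Other omissions of 1 library lowered the count, to 1 without CreERT2/del 4, against 3.57%. It was 2 without CreERT2/del 2, CreERT2/+ 1 or CreERT2/+ 2, against 3.12%, 3.59% and 6.84%. The members' median was 0.24 log2 units, against -0.02 over all tested genes, and 29 of 34 lay above 0. Without the 3 libraries it was 0.30, with 28 above 0. In 4 members every CreERT2/del library lay above every CreERT2/+ library, namely Pfkl, Pgk1, Eno1 and Pkm2, and 1.24% of tested genes did the same. No member lay wholly below, as 1.25% of tested genes did.

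Pgk1 (mm9 chrX:103382439-103399038, plus strand) was at 207, 279.9, 155 and 227 CPM in CreERT2/+ and at 334, 338, 291 and 375 CPM in CreERT2/del. The groups do not overlap, but WT overlaps both, with 370.4, 320.4, 376 and 162 CPM. The log2 fold change of CreERT2/del over CreERT2/+ was 0.62 ± 0.25 (adjusted p = 0.999 by edgeR), and 0.56 on the 13 libraries (adjusted p = 0.487).

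Pkm2 was at 157, 135, 140.5 and 122 CPM in CreERT2/+ and at 184, 205, 173 and 210.0 CPM in CreERT2/del. Its log2 fold change was 0.48 ± 0.21, and 0.54 on the 13 libraries (adjusted p = 0.999 and 0.526 by edgeR). Pfkl was at 24.1, 18.1, 26.1 and 18.4 CPM against 26.8, 34.9, 29.2 and 27.5 CPM, and Eno1, the main enolase, at 204, 184, 189 and 198 CPM against 265, 260.3, 213 and 270.6 CPM. In both genes the gap between the groups is narrow, from 26.1 to 26.8 CPM and from 204 to 213 CPM. Egln3 was at 1.18, 1.06, 0.85 and 2.46 CPM in CreERT2/+, overlapping CreERT2/del, with a log2 fold change of 0.94 ± 0.38 (adjusted p = 0.999 by edgeR). Hk1, Pfkm and Adm, which encodes the vasodilator adrenomedullin, had the lowest p downwards, at -0.34 ± 0.24, -0.30 ± 0.22 and -0.26 ± 0.41. They were at -0.07, -0.23 and -0.58 on the 13 libraries, where Egln3 was at 0.87, and Car9 had the lowest p, at 3.17 ± 1.03 (adjusted p = 0.455 by edgeR), from 3 counts in all in the 3 CreERT2/+ libraries left.

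Against del/+ hearts, which lack the CreERT2 allele, CreERT2/del hearts had 0 members past the threshold, against 0.0205% of tested genes. None reached an unadjusted p of 0.05 in edgeR, DESeq2 or limma-voom, and the latter tools called 0 as well, while 5.08% of tested genes reached it in edgeR. Pkm2 reached it on the 13 libraries, as the 1 member that did, against 8.29% of tested genes. The median was 0.09 with 24 above 0 (0.10 with 22 on the 13 libraries), and no member's groups lay apart, as those of 2.47% of tested genes did upwards and 1.72% downwards. Pkm2 at 0.34 ± 0.21, Pfkl at 0.35 ± 0.22 and P4ha1, a collagen prolyl hydroxylase subunit, at 0.27 ± 0.19 were highest by p, and Hk1 at -0.35 ± 0.24, Slc2a1 at -0.22 ± 0.20 and Pgam1, phosphoglycerate mutase, at -0.20 ± 0.24 were their counterparts below 0.

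The 2 single-allele genotypes were also set against each other. Between CreERT2/+ and del/+ hearts 0 members passed, 0 tested genes passed in all (0%), and 4.17% of tested genes but 0 members had an unadjusted p below 0.05; DESeq2 and limma-voom called 0 members. Car9 and Gpi1, 2 members, had an unadjusted p below 0.05 on the 13 libraries, against 8.70% of tested genes. The median of the members was -0.09, against 0.03 over all tested genes, with 24 below 0 (-0.21 with 28 below 0 on the 13 libraries). Slc2a1, the basal glucose transporter GLUT1, was at 254, 245, 242 and 243 CPM in del/+ and at 209, 180.3, 202 and 202 CPM in CreERT2/+. Every CreERT2/+ library was lower, at a log2 difference of -0.31 ± 0.20 (adjusted p = 0.997 by edgeR), while the WT libraries, at 256, 160, 256 and 170.3 CPM, spanned both groups. Eno1 was the other member whose libraries did not overlap, and 0.883% of tested genes did so downwards. Upwards 0 members and 1.44% of tested genes lay apart. Ldha at -0.53 ± 0.28, Pgk1 at -0.48 ± 0.25 and Gpi1, which converts glucose 6-phosphate to fructose 6-phosphate, at -0.35 ± 0.20 had the lowest p downwards. Upwards Pfkfb3 was at 0.50 ± 0.39, Pfkp, the platelet phosphofructokinase, at 0.19 ± 0.27 and Pfkm at 0.14 ± 0.22. The estimates of all 3 rest on CreERT2/+ 3, without which they were 0.03, -0.21 and -0.03.

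An interaction term asked whether the effect of one altered allele depended on the other. No member passed (0.0411% of tested genes did), and DESeq2 and limma-voom called 0. An unadjusted p below 0.05 was reached by 2 members and by 4.34% of tested genes, and on the 13 libraries by 6 members and 7.62%. Without WT 1 alone 0 members reached it, against 4.33%, and without WT 3 alone 1 did, against 4.17%. The members' median was 0.21, against -0.01 over all tested genes, with 26 above 0 and 8 below (0.30 with 27 above 0 on the 13 libraries). The 2 members with all 16 libraries were Pfkl at 0.78 ± 0.31 and Pkm2 at 0.74 ± 0.30 log2 units (adjusted p = 0.996 for both by edgeR), followed by Pgk1 at 0.64 ± 0.36. In these 3 genes both single-allele means were below WT and the CreERT2/del mean was above it: Pkm2 was at 152 ± 17.6 CPM in del/+ hearts and 139 ± 14.5 CPM in CreERT2/+ hearts, against 182 ± 51.2 CPM for WT and 193 ± 17.6 CPM for CreERT2/del (SD, n = 4). The place of CreERT2/del above WT was lost without WT 4 in all 3. For Pfkl it does not rest on WT 4 alone, since WT 2 was about as low (21.4 CPM against 21.3 CPM in WT 4). Without WT 4 the WT means of Pfkl, Pkm2 and Pgk1 were 31.75, 201.6 and 355.6 CPM. Those lie above the CreERT2/del means of 29.6, 193.1 and 334.4 CPM. On the 13 libraries the interaction values were 1.01, 0.94 and 0.79, with adjusted p of 0.309, 0.240 and 0.403 by edgeR. Egln1 at -0.51 ± 0.35, Adm at -0.44 ± 0.58 and Pfkm at -0.26 ± 0.31 were lowest by p below 0. The 7 comparisons share libraries, so their estimates are not independent of each other.

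Several steps are served by paralogous members, and their ratio within a library does not depend on library size. Per kilobase in WT, Ldha exceeded Ldhb by 4.72 ± 1.44 times, Hk1 exceeded Hk2 by 3.14 ± 1.35 times and Pfkl exceeded Pfkm by 2.65 ± 0.72 times (SD, n = 4). Pfkp and Pfkm were level at 1.08 ± 0.16. Aldoa exceeded the brain aldolase Aldoc by 164 ± 56.1 times, Slc2a1 exceeded Slc2a3 by 58.6 ± 16.3 times, Egln1 exceeded Egln3 by 6.61 ± 1.72 times and P4ha1 exceeded P4ha2 by 4.13 ± 1.34 times. Eno1 exceeded Eno3, the muscle enolase, by 1.48 ± 0.26 times.

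No ratio differed between the 4 genotypes after adjustment over the 9 ratios in an exact permutation test of the log2 ratios. The lowest exact p were 0.0448 for Pfkl over Pfkm and 0.0592 for Hk1 over Hk2, each with an adjusted p of 0.235. On the 13 libraries without the 3 low in ribosomal RNA they were 0.0253 and 0.0258, each with an adjusted p of 0.116 in the exact permutation test. Pfkl over Pfkm was 3.40, 3.62, 2.54 and 2.96 per kb in CreERT2/del and 1.80, 1.80, 1.68 and 2.25 in CreERT2/+, while WT ran from 1.77 to 3.47 and del/+ from 1.75 to 3.21. The first pair of groups does not overlap, and WT and del/+ each overlap both. Hk1 over Hk2 was 4.56, 2.39, 3.96 and 1.64 in WT and 1.55, 1.57, 0.96 and 1.97 in CreERT2/del, which overlap through WT 4. Ldha over Ldhb was 5.69 to 6.70 in CreERT2/del and 3.91 to 5.44 in CreERT2/+. Of 54 tests between pairs of genotypes, 2 reached 0.0286, the smallest p that 4 against 4 allows in a two-sided exact permutation test, and the lowest adjusted p over all 54 was 0.579.

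**Figure D3:**
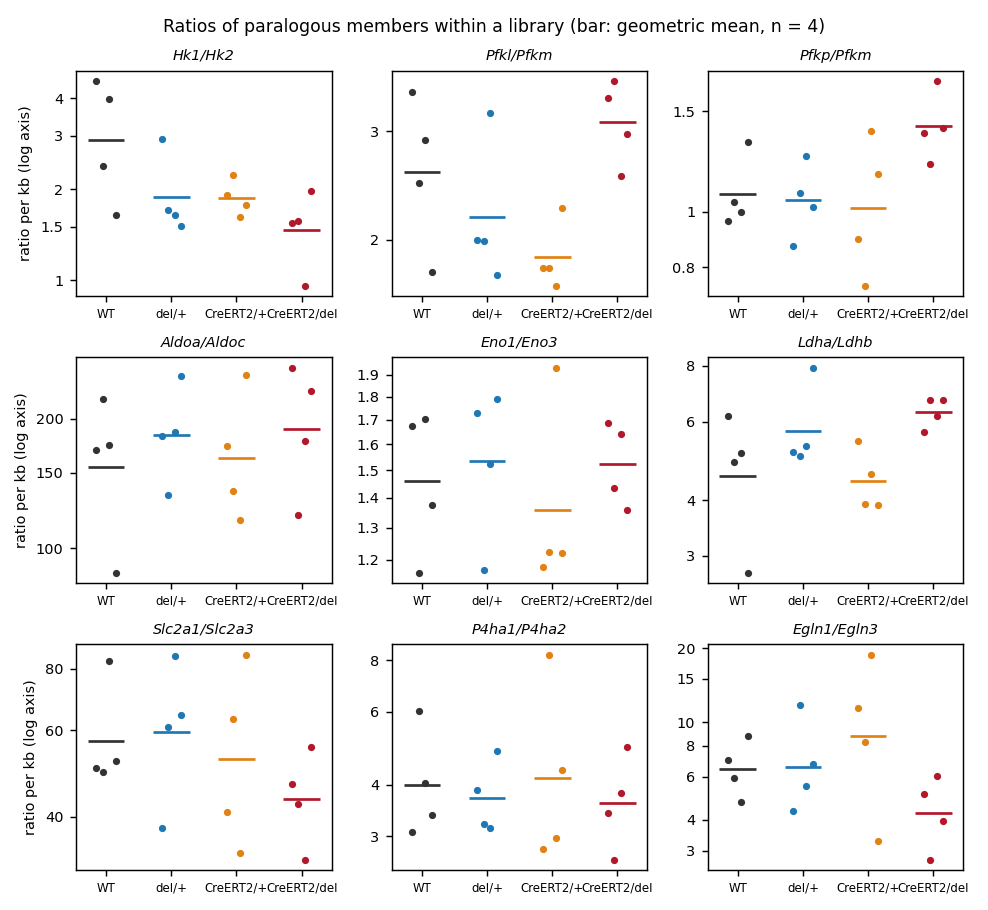
Ratio of 9 pairs of paralogous members per kilobase in each of the 16 libraries (points, log axis), by genotype, with bars at the geometric mean of 4 libraries. For Pfkl over Pfkm the CreERT2/del libraries lie above all CreERT2/+ libraries, from 2.54 to 3.62 against 1.68 to 2.25, and the WT libraries overlap both.

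CreERT2/+ 3 was the highest of all 16 libraries for 8 members and the lowest for 7, and it was so for 17.6% and 18.2% of tested genes. Ldha shows the pattern at the level of 1 gene: it was at 765, 579, 742 and 295 CPM in WT, at 549, 510.6, 304 and 534 CPM in CreERT2/+, at 654, 766, 542 and 773 CPM in del/+, and at 591, 781, 543 and 786 CPM in CreERT2/del. WT 4 and CreERT2/+ 3 are far below all others, while the other 14 libraries lie between 510.6 and 786 CPM. Tpi1, triose phosphate isomerase, was at 108 CPM in WT 4 and 82.6 CPM in CreERT2/+ 3, and at 165 to 299 CPM elsewhere. Hk2 went the other way, with its highest values in CreERT2/+ 3 (17.9 CPM), CreERT2/del 3 (16.1 CPM) and WT 4 (13.8 CPM) and 5.37 to 11.7 CPM elsewhere.

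**Figure D4:**
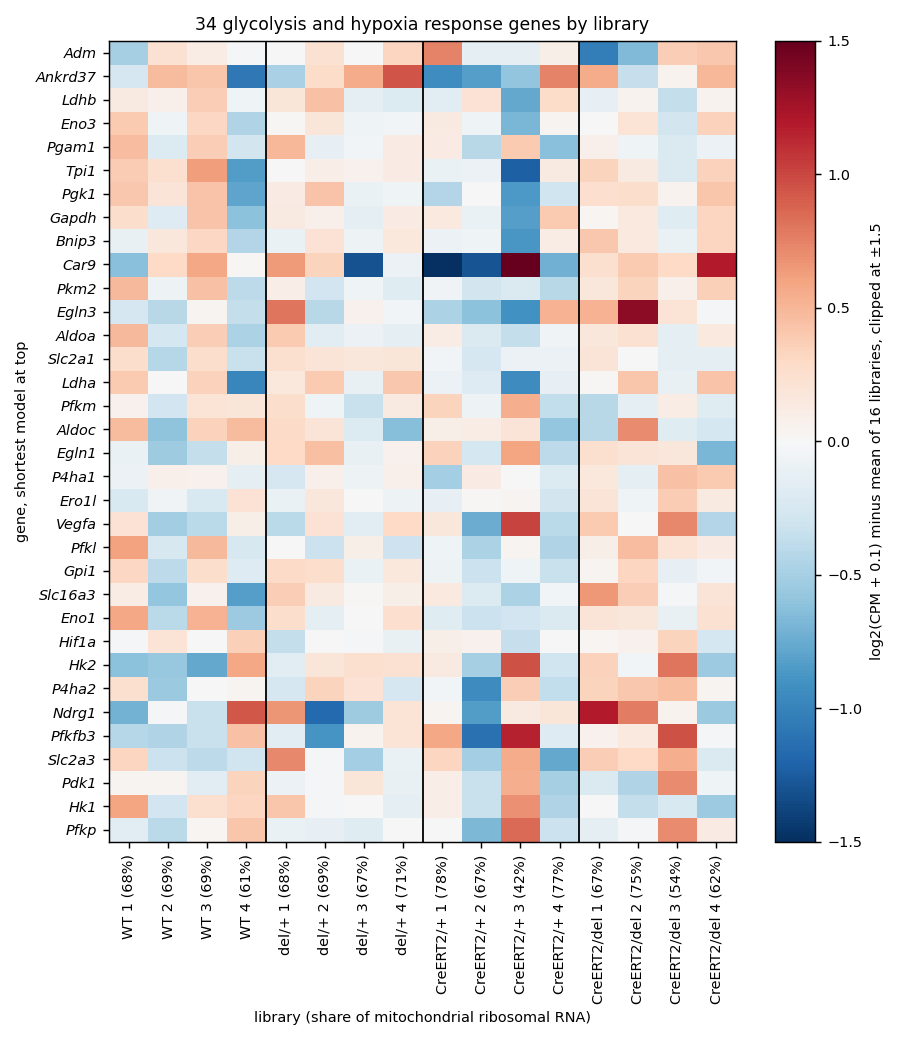
Log2(CPM + 0.1) of each member in each library minus its mean over 16 libraries (colour, clipped at 1.5), with genes ordered from the shortest to the longest gene model and the share of mitochondrial ribosomal RNA given under each library. In CreERT2/+ 3 (42.3%) the top rows are mostly blue and the bottom rows mostly red, and WT 4 and CreERT2/del 3 show the same order more weakly.

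Most members low in these 3 libraries had short gene models and most high in them long ones. Each library was compared with the libraries of its own genotype outside the 3, on log2(CPM + 0.1). A total of 12 members were below in all 3, among them Gapdh, Ldha, Ldhb, Tpi1, Pgk1, Aldoa and Bnip3, and 10 were above in all 3, among them Hk1, Hk2, Pfkp, Pfkfb3, Pdk1 and Vegfa. Of all tested genes, 28.3% were below and 31.3% above in all 3. Of the 12 members, 10 had models under 4000 bases, with Eno1 and Slc16a3 longer, and of the 10 members 8 were longer, with Pfkm and Egln1 shorter. Across the 34 members the Spearman correlation of the deviation with model length was 0.58 in WT 4 and 0.63 in CreERT2/+ 3. It was 0.475 in CreERT2/del 3 and lay between -0.483 and 0.483 in the other 13. The highest of the 13, CreERT2/+ 1, had the largest ribosomal share (78.3%), so CreERT2/del 3 does not stand apart by this measure. Over all tested genes the correlation was 0.38, 0.40 and 0.35 in the 3 libraries and 0.18 in CreERT2/+ 1. At 4000 bases, a split set after the values were seen, the 16 longer members had a median deviation of 0.59 and the 18 shorter ones -0.34 in CreERT2/+ 3. These points share a library and are a description. The summed level of 8 erythroid markers, all detected in all 16 libraries, was 1523 CPM in WT 4, 1558 in CreERT2/+ 3 and 3001 in CreERT2/del 3, against 2791 to 6358 CPM in the other 13. In WT 4 the sum of 7 endocardium and endothelium markers was 247 CPM, against 171 to 201 CPM in the other 13, and that of 5 cushion mesenchyme markers 194 CPM, against 96.3 to 150.3 CPM. The part of the ribosomal RNA share or of these cell types in the pattern was not tested.

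**Figure D5:**
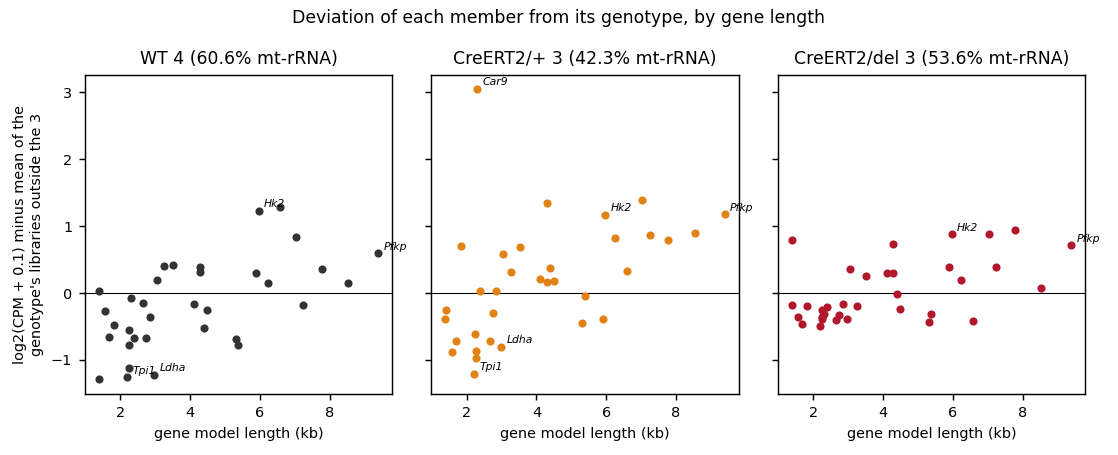
Deviation of each of the 34 members in WT 4, CreERT2/+ 3 and CreERT2/del 3 from the mean of its genotype's libraries outside these 3, on log2(CPM + 0.1), against gene model length. Of the named points, short members such as Tpi1 and Ldha lie below 0 and long ones such as Hk2 and Pfkp above it; the point near 3.05 in CreERT2/+ 3 is Car9.

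Further genes of both pathways were read alongside the members. Of 38 other glycolysis genes 30 were tested and 0 passed in any comparison by edgeR; their median in CreERT2/del against WT was -0.23 log2 units, with 7 above 0 and 23 below. The lowest p there belonged to Hkdc1, a hexokinase-like gene below 1 CPM in every library, at -2.90 ± 0.85, and to Slc16a1, the lactate transporter MCT1, at -0.41 ± 0.21 (adjusted p = 0.250 and 0.940 by edgeR). At an unadjusted p below 0.05 by edgeR there was 1 of the 30 in that comparison, against 5.67% of tested genes. The most in any of the 7 was 4, in CreERT2/+ against WT, where 3.71% of tested genes reached it. Slc2a4, the insulin-responsive transporter GLUT4, was at 3.44, 3.40, 2.58 and 7.06 CPM in CreERT2/+ and 1.86, 2.05, 1.51 and 2.11 in CreERT2/del. These groups do not overlap. CreERT2/del lay wholly below CreERT2/+ in 1 of the 30 genes, against 1.25% of tested genes. The log2 fold change of CreERT2/del over CreERT2/+ for Slc2a4 was -1.12 ± 0.35 (adjusted p = 0.556 by edgeR).

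Of 45 other hypoxia response genes 43 were tested and 1 passed, in 1 comparison. This was CreERT2/del against WT, where 0.335% of tested genes passed. There 5 of the 43 had an unadjusted p below 0.05 by edgeR, against 5.67% of tested genes. The CreERT2/del libraries lay wholly above WT in 3 of the 43, against 2.31%, and wholly below in 0, against 1.96%. Edn1, which encodes the vasoconstrictor peptide precursor of endothelin-1, rose in CreERT2/del hearts, the genotype in which the epicardium marker sum was also lowest, and whether that bears on Edn1 was not tested. It was at 3.82, 2.73, 3.66 and 3.05 CPM in WT and at 7.99, 7.20, 5.81 and 7.82 CPM in CreERT2/del. The values were 5.29, 5.11, 3.37 and 3.18 CPM in del/+ and 2.52, 2.76, 3.08 and 4.61 CPM in CreERT2/+. All 4 CreERT2/del libraries lie above all 12 others. The log2 fold change against WT was 1.12 ± 0.24 with an adjusted p of 0.0494 by edgeR, just under the threshold. On the 13 libraries it was 1.17 ± 0.27 (adjusted p = 0.0346 by edgeR), and with the replicate number as a block the adjusted p was 0.0874. Leaving out single libraries put the adjusted p above 0.05 in 14 of 16 cases, with log2 fold changes over all 25 alternatives of 1.03 to 1.19 and adjusted p from 0.00222 to 0.175. Against CreERT2/+ it was 1.15 ± 0.25 (adjusted p = 0.1005 by edgeR). The median of the 43 genes was 0.05.

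The authors' deposited table gives its own p-values for pairs of genotypes. In it the lowest adjusted p-value of any member in any pair was 0.923.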

How the data were processed

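Extraction used Qiazol with the miRNeasy micro kit and library preparation the Ovation system, per the labels' protocols. TopHat2, featureCounts, edgeR and build mm9 are named in the submitters' processing notes, without versions, strand settings or the handling of reads with several matches. The per-library values are the authors' deposited raw counts per gene, whole numbers that were used as they stand, not the expected counts that a model would estimate. The authors' deposited table also holds log2 fold changes, p-values and adjusted p-values for pairs of genotypes; 52 further columns of per-sample or mean values were not used. Genes without a symbol (415 of 37991) took at most 0.117% of a library.

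Counts of all 16 libraries were tested with edgeR 4.0.16 in R 4.3.3: default filter on low counts (14612 genes, all 34 members), TMM scaling, 1 mean per genotype, 12 residual degrees of freedom, a quasi-likelihood test and Benjamini-Hochberg adjustment over all tested genes at 0.05. Ratios of 9 paralogue pairs, log2 of counts plus 0.5, were compared by an exact permutation test over all 2627625 partitions (scipy 1.17.1, numpy 2.4.6). Both procedures were tested on simulated data. Chi-square per degree of freedom between libraries of 1 genotype ran from 22.9 to 618, so none was counted as a duplicate. Of the members, 13 overlap another gene model. Alternatives were other scaling and filters, DESeq2 1.42.0, limma-voom (limma 3.58.1), a replicate block, the ribosomal share as a covariate, and leaving out libraries. The members and the lists were chosen with earlier results of these data known. In each comparison the text names members past the threshold, or else the 3 with the lowest p in each direction; Ldha, Tpi1, Hk2, Gapdh and the members whose groups do not overlap were named beyond that after their values were seen, as was Slc2a4. Trf, with more than 1 row, was left out. Of the genes that this choice names, 1 is not reported here. Promoter windows and their gene symbols are from RefSeq, build GRCm38.p6, and gene positions from the deposited table, build mm9.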

Additional observations from a re-analysis of the deposited data

Results flagged for a closer look

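Within the groups of 4 libraries, 12 of 136 tests by Dixon's ratio at the 95% level set 1 library apart from the other 3, where chance gives about 6.8. Of these, 5 lie in the 3 libraries low in mitochondrial ribosomal RNA. Hk2 was at 13.8 CPM in WT 4 against 5.37 to 6.17 CPM in the other WT libraries. Pfkfb3 was at 4.65 CPM in WT 4 against 2.47 to 2.70 CPM, and at 6.68 CPM in CreERT2/del 3 against 3.37 to 3.80 CPM. Ldha was at 304 CPM in CreERT2/+ 3 against 510.6 to 549 CPM, and Car9 at 1.06 CPM there against 0 to 0.10 CPM.

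In other libraries, Slc2a3 was at 12.9 CPM in WT 1 against 7.85 to 8.33 CPM, and Aldoa at 328 CPM in del/+ 1 against 224 to 235 CPM. CreERT2/+ 4 was low for Aldoc (1.13 CPM against 1.85 to 1.98 CPM) and high for Ankrd37, an ankyrin repeat gene, (2.20 CPM against 0.62 to 0.81 CPM). Aldoc was at 2.89 CPM in CreERT2/del 2 against 1.27 to 1.51 CPM. CreERT2/del 4 was low for Egln1 (8.66 CPM against 15.7 to 16.5 CPM) and high for Car9 (0.66 CPM against 0.29 to 0.34 CPM).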

How the results depend on the processing

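The count of members past the threshold was 0 in all 7 comparisons under each of 26 alternatives per comparison (25 for the interaction), including a replicate block (0 members called) and every omission of 1 library (0 to 0). The lowest adjusted p of a member was 0.172, for Hk2 in del/+ against WT without the 3 libraries low in ribosomal RNA. Of 24 same-numbered pairs of libraries, 3 had correlated deviations above 0.1 (r from -0.30 to 0.46). Pairs of different number were not compared, so these values do not decide whether the replicate numbers pair the libraries. No paralogue ratio was called under any of 20 alternatives. The signs of Pfkp and Pfkm in CreERT2/+ against del/+ turned without the 3 libraries (-0.213 and -0.0318) and without CreERT2/+ replicate 3 alone (-0.214 and -0.0325; omitting 1 library in turn gave -0.214 to 0.365 and -0.0325 to 0.274), and the cause beyond that library was not tested. The members' median ran from -0.03 to 0.19 in CreERT2/del against WT, from -0.05 to 0.07 in del/+ against WT, from -0.20 to -0.06 in CreERT2/+ against WT and from 0.17 to 0.32 in CreERT2/del against CreERT2/+. Counts over all tested genes moved more: 13 to 189 for CreERT2/del against WT (49 as reported), 10 to 120 for del/+ (17), 3 to 73 for CreERT2/+ (5), 2 to 65 for CreERT2/del against del/+ (3), 2 to 92 against CreERT2/+ (11), 0 to 36 for CreERT2/+ against del/+ (0) and 4 to 73 for the interaction (6). The call of Edn1 was lost under 15 of 25 alternatives, the replicate block among them. With a mean of at least 5 CPM, 26 members were tested. Depth limits Car9 and Ndrg1 most.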
